A study of Mus musculus with 6 samples.

Results

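The genes of the tumour necrosis factor (TNF) superfamily of ligands and receptors were read in 6 RNA-seq libraries of mouse splenic CD4+ T cells. They were chosen by symbol, as the rows starting with Tnfsf or Tnfrsf plus Tnf, Lta, Ltb, Ltbr, Cd40, Cd40lg, Cd27, Cd70, Fas and Fasl, which gave 41 of the 26469 gene rows. Of these, 16 are ligand genes and 23 receptor genes. The other 2 encode no separate superfamily protein: Tnfsf13os is an opposite-strand transcript and Tnfsfm13 the joint transcript of Tnfsf12 and Tnfsf13. In the 3 libraries here called mutant, naive CD4+ T cells came from mice of genotype Sf3b1K700E/fl with Cd4Cre, and the labels give Sf3b1 mutation. In the 3 libraries here called control they came from Sf3b1K700E/fl mice without Cre and are labelled WT, so the conditional allele was present in all 6 samples and Cre in the mutant samples only. SF3B1 is a core splicing factor, K700E is a change found in cancers, and the Cd4 promoter drives Cre in all developing T cells that express CD4, not in regulatory T cells (Tregs) alone. All cultures stayed for 36 h in a Treg-inducing mixture of TGFβ at 5 ng/ml, stimulating antibodies against CD3 and CD28, and blocking antibodies against IL-4 and IFNγ. The sources do not say whether each library came from its own animal, so the p-values rest on the spread among these libraries alone, part of which may be technical.

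TNF superfamily ligands are mostly membrane proteins that form trimers, and many can be shed. They bind receptors with cysteine-rich outer domains. Receptors with a death domain can start caspase cascades, and many receptors of the family recruit TRAF adaptor proteins and feed the NF-κB and MAP kinase pathways. On T cells, OX40 (Tnfrsf4), GITR (Tnfrsf18), 4-1BB (Tnfrsf9) and TNFR2 (Tnfrsf1b) are costimulatory receptors that are abundant on Tregs.

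Deposited totals ran from 34524433 to 36867313 counts in the mutant and from 33633196 to 43928723 counts in the control libraries. Levels below are CPM, counts relative to the library total after scaling by the trimmed mean of M-values (TMM), and 1 CPM stood for 34.4 to 40.7 counts. Summed over 7 genes that define CD4 T cells, the level ran from 1670 to 2560 CPM in mutant and from 1520 to 2110 CPM in control libraries. The sum of 6 B cell genes was 4.21, 35.5 and 10.0 CPM in mutant 1, 2 and 3, against 3.61 to 6.94 CPM in control libraries. Myeloid genes summed to at most 5.48 CPM and NK cell genes to at most 0.961 CPM in any library. Some libraries stood apart in other lists: the 4 stromal and endothelial genes summed to 153, 48.5 and 32.3 CPM in mutant 1, 2 and 3, against 20.6 to 28.1 CPM in control libraries. Nearly all of this was Pecam1, at 151 CPM in mutant 1, while the collagen genes Col1a1 and Col1a2 did not exceed 0.848 CPM. The 2 CD8 genes summed to 6.56 to 17.3 CPM in mutant libraries, against 40.4, 8.64 and 5.81 CPM in control 1, 2 and 3. The 4 dendritic cell genes reached 22.4 CPM in mutant 2 and at most 12.8 CPM elsewhere. Most of this was Zbtb46, at 20.2 CPM in mutant 2, while Flt3, Itgax and Xcr1 did not exceed 1.67 CPM in any library. The part of these differences in the values below was not tested. Gene levels in bulk RNA cannot tell fewer cells of a type from less RNA per cell. Sf3b1 itself was at 627 ± 30.4 CPM in mutant and 661 ± 44.3 CPM in control libraries (SD, n = 3 each), a count that does not show which allele was transcribed.

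No ligand or receptor passed edgeR's quasi-likelihood test at an adjusted p of 0.05, where 0 of 18323 genes tested passed (0%). Among the members, 14 of 16 ligands and all 23 receptors had enough counts to be tested. An unadjusted edgeR p under 0.05 was met by 1 ligand, Lta, and by 3 receptors, Tnfrsf13b, Tnfrsf26 and Tnfrsf23, against 1396 of all genes tested (7.62%), 3.48% lower and 4.14% higher in mutant libraries. Groups without overlap were seen in 1 ligand, with the mutant libraries below, and in 6 receptors, 3 below and 3 above, against 14.1% of genes over the whole test, 7.48% below and 6.6% above. The fitted log2 fold change (mutant minus control) was above 0 for 10 ligands and 17 receptors and below 0 for 4 ligands and 6 receptors, against 52.9% of all genes above and 47.1% below 0. Its median was 0.43 over ligands, 0.25 over receptors and 0.024 over all genes tested. By limma-voom 0 genes passed. DESeq2, run on 26415 genes without the count filter, called 100 genes, among them 1 receptor, Tnfrsf13b, and 0 ligands. The family was not tested against other genes.

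**Figure D1:**
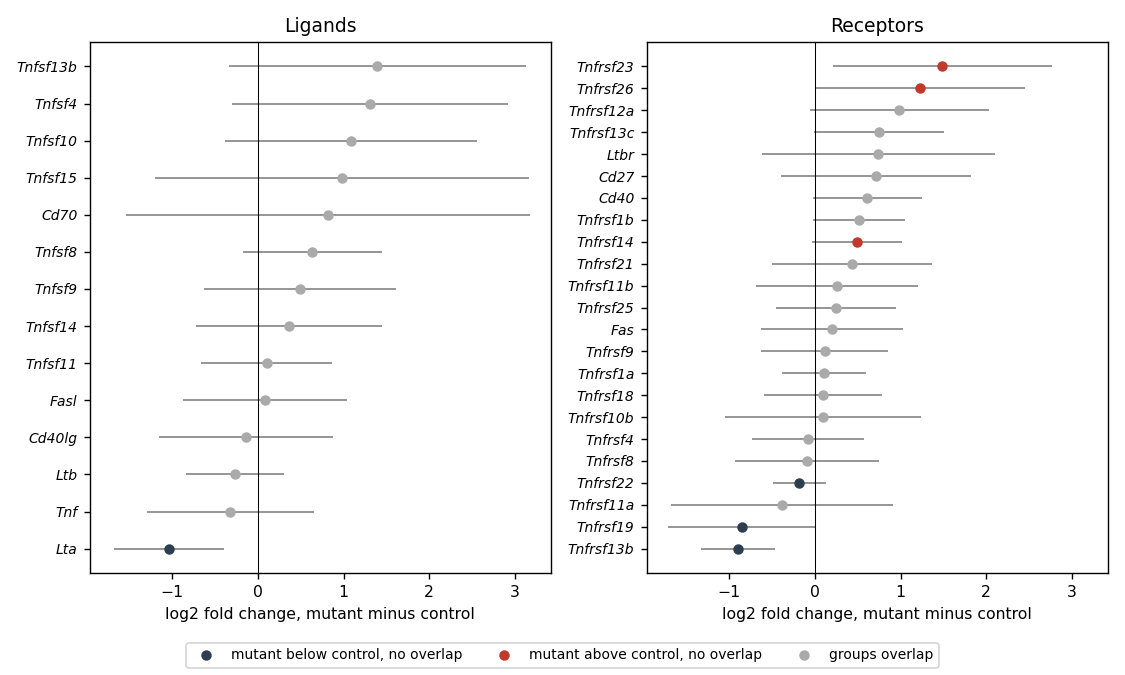
Log2 fold change of each tested ligand (left) and receptor (right), mutant minus control, with its 95% interval from edgeR; colour marks whether the 3 mutant and 3 control libraries overlap. Lta at -1.04 and Tnfrsf13b at -0.90 have intervals below 0 on the left of their panels, and Tnfrsf23 at 1.49 and Tnfrsf26 at 1.23 have intervals above 0.

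The spread between libraries differed from member to member. The coefficient of variation (SD divided by mean) of a tested ligand had a median of 0.521 among mutant and 0.273 among control libraries, that of a receptor 0.385 and 0.216, and that of all genes tested 0.23 and 0.148. It was above the all-gene median in 14 of 14 ligands among mutant and 11 among control libraries, and in 18 and 15 of 23 receptors. Mutant 1 was the lowest of the 6 libraries for 7 of 14 ligands and 7 of 23 receptors. It was the highest for 3 ligands and 10 receptors. The share of all genes with mutant 1 lowest or highest was not counted. Over all genes tested, too, same-group pairs with mutant 1 differed most. Their chi-square over its degrees of freedom was 139 and 176, against 18.6 to 58.5 for the other pairs. No other library was lowest for more than 3 ligands or highest for more than 5 receptors. Mutant 2 and mutant 3 were highest for 4 and 5 ligands, more than mutant 1, and control 3 was lowest for 5 receptors.

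Lta, Tnf and Ltb encode lymphotoxin-α, TNF and lymphotoxin-β, and lie side by side on chromosome 17 in the RefSeq annotation of GRCm38.p6. Lta was low in all mutant libraries, while the other two overlapped between the groups. Shown to set the neighbouring starts side by side, the 250 bases before each gene's RefSeq start (GRCm38.p6, 5′ to 3′) carry in capitals the matches, on either strand, to the NFAT core GGAAA and to the κB pattern GGGANTT:
Lta, chr17:35205352-35205601, strand -: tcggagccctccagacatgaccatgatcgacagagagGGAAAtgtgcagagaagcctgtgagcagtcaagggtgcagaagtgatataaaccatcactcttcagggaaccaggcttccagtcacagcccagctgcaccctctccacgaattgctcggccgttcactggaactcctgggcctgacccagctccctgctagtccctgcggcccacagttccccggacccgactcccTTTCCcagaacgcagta
Tnf, chr17:35202008-35202257, strand -: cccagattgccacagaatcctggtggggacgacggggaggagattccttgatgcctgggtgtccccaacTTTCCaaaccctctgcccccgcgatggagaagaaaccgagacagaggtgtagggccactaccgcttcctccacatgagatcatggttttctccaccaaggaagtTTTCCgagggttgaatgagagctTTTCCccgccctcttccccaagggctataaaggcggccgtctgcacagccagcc
Ltb, chr17:35194257-35194506, strand +: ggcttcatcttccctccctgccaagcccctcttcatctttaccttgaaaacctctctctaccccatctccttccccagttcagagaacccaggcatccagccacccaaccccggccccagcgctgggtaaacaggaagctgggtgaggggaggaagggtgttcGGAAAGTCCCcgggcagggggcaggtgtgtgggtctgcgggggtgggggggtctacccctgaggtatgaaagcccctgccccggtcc

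These windows hold 2 matches to GGAAA before Lta, 3 before Tnf and 1 before Ltb, and the κB pattern is present before Ltb, where its first base lies at -84 from the start and it shares 2 bases with the GGAAA match. The AP-1 pattern TGANTCA is in none of these 3 windows. RefSeq promoters were matched for 11 ligands and 18 receptors. GGAAA was found in 10 of the 11 ligand and 13 of the 18 receptor windows, against 58.8% of 27025 genes. The κB pattern was in 1 ligand window (Ltb) and 1 receptor window (Tnfrsf9), against 16.4% of genes. TGANTCA was in 3 ligand and 3 receptor windows, against 7.82% of genes. A match of letters is not a bound site.

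Lta was at 111, 210.1 and 245 CPM in mutant 1, 2 and 3, against 438, 353 and 368 CPM in control 1, 2 and 3. The groups did not overlap: all mutant values were under the lowest control value, and mutant 1 was the lowest. The mean was 188.5 ± 69.5 CPM in mutant and 386 ± 45.1 CPM in control libraries (SD, n = 3 each). This gave a log2 fold change of -1.04 ± 0.28 (SE; 95% interval from -1.68 to -0.39), with an edgeR adjusted p of 0.598 and an unadjusted p of 0.00608. It was -0.75 without mutant 1 and ran from -1.27 to -0.75 over the 6 fits that left out 1 library each. DESeq2 gave Lta an adjusted p of 0.0717.

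Tnf had 36.1, 67.4 and 124 CPM in the 3 mutant libraries, against 64.4, 113 and 107 CPM in the 3 control libraries, each set here and below in the order 1, 2 and 3. Mutant 1 was the lowest and mutant 3 the highest of all, so the groups overlapped, and the log2 fold change of -0.32 ± 0.42 (SE) was 0.029 without mutant 1. For Ltb the values were 109.7, 69.1 and 54.2 CPM in mutant and 95.2, 92.9 and 91.6 CPM in control libraries. Here mutant 1 was the highest and the other two mutant libraries lay below all controls, and the log2 fold change was -0.26 ± 0.25 (SE), or -0.59 without mutant 1. The 3 genes therefore did not keep the same order of libraries, although they are neighbours.

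**Figure D2:**
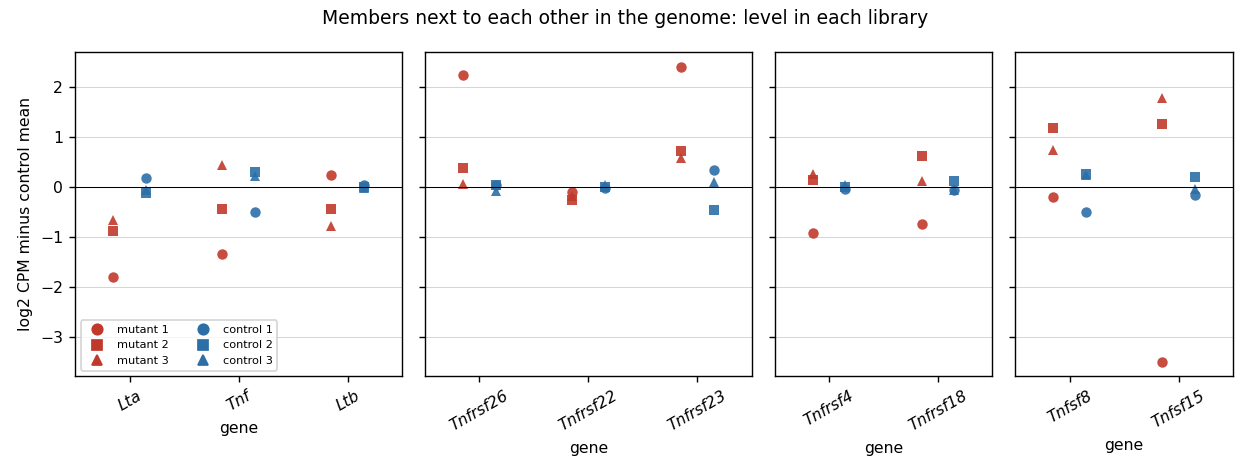
Level of members that lie next to each other in the genome, as log2 CPM minus the mean of the control libraries, one point per library (red mutant, blue control). Lta is below 0 in all 3 mutant libraries, from -1.79 to -0.65, while Tnf and Ltb lie on both sides of 0; Tnfrsf26 and Tnfrsf23 stand at 2.23 and 2.39 in mutant 1 while Tnfrsf22 does not, at -0.11.

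The ligands of the costimulatory receptors varied widely among the mutant libraries, and Tnfsf4 and Tnfsf14 did so among the control libraries too. Tnfsf8, which encodes CD30 ligand, had 189, 493 and 367 CPM in mutant libraries, against 155.5, 262.5 and 257 CPM in control libraries. Mutant 2 and mutant 3 lay above all controls and mutant 1 between them (log2 fold change 0.64 ± 0.35 SE, edgeR adjusted p = 0.714; 0.95 without mutant 1). Its receptor gene Tnfrsf8 ran from 0.595 to 0.848 CPM in mutant and from 0.578 to 0.958 CPM in control libraries.

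Tnfsf4, which encodes OX40 ligand, had 12.5, 45.1 and 14.8 CPM in mutant libraries, against 3.86, 19.6 and 5.73 CPM in control libraries. Control 2 lay above mutant 1 and mutant 3, and this library alone made the groups overlap (log2 fold change 1.31 ± 0.70 SE, adjusted p = 0.712 in edgeR). The log2 fold change was 2.33 without control 2 and 0.51 without mutant 2. Tnfsf9, for 4-1BB ligand, was at 4.01, 13.1 and 14.8 CPM in mutant and 5.34, 10.8 and 6.53 CPM in control libraries. Tnfsf14, for LIGHT, was at 5.82, 10.4 and 17.4 CPM in mutant and 5.63, 13.9 and 6.55 CPM in control libraries. Both overlapped, with log2 fold changes of 0.49 ± 0.48 and 0.37 ± 0.47 (SE).

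Cd40lg encodes CD40 ligand, by which helper T cells activate B cells. It was at 14.6, 47.2 and 43.4 CPM in mutant libraries, against 26.1, 54.7 and 35.0 CPM in control libraries. Mutant 1 was the lowest and control 2 the highest, and the log2 fold change of -0.14 ± 0.44 (SE) became 0.24 without mutant 1. Cd70, the ligand of CD27, had 1 to 27 counts per library and did not exceed 0.765 CPM. It was highest in mutant 2 and control 2.

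Tnfsf10, which encodes TRAIL, a ligand of death receptors, had 85.0, 74.4 and 25.2 CPM in mutant libraries, against 15.2, 58.0 and 13.7 CPM in control libraries. Control 2 lay above mutant 3, and the other 2 controls lay below every mutant library. The log2 fold change of 1.09 ± 0.64 (SE; 95% interval from -0.39 to 2.56) had an edgeR adjusted p of 0.724, and was 2.09 without control 2. Fasl, whose product kills cells that carry Fas, was at 2.46, 7.76 and 5.57 CPM in mutant and 5.28, 3.83 and 5.78 CPM in control libraries. These values overlapped, and the log2 fold change was 0.084 ± 0.41 (SE). Tnfsf11, for RANK ligand, was at 118, 234 and 306 CPM in mutant and 168, 255 and 189 CPM in control libraries. It too overlapped, with mutant 1 lowest and mutant 3 highest (0.10 ± 0.33 SE on the log2 scale).

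Tnfsf15, for the cytokine TL1A, fell outside the rule for values in every sample and was picked after its values were seen. It was at 0.226, 7.51 and 10.8 CPM in mutant libraries, against 2.79, 3.59 and 3.001 CPM in control libraries. The other two mutant libraries were above all controls, and mutant 1, with 8 counts, was below them; the log2 fold change was 0.98 ± 0.94 (SE), or 1.56 without mutant 1. Tnfsf13b, for the B cell survival factor BAFF, was at 3.17, 0.623 and 0.435 CPM in mutant libraries, against 0.418 to 0.661 CPM in control libraries, so mutant 1 alone stood apart. Tnfsf12 and Tnfsf13, for TWEAK and APRIL, had 0 to 7 counts per library and were not tested, as were Tnfsf13os with 2 to 8 and Tnfsfm13 with 2 to 14 counts. Reads of these 4 overlapping rows cannot be told apart with confidence.

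**Figure D3:**
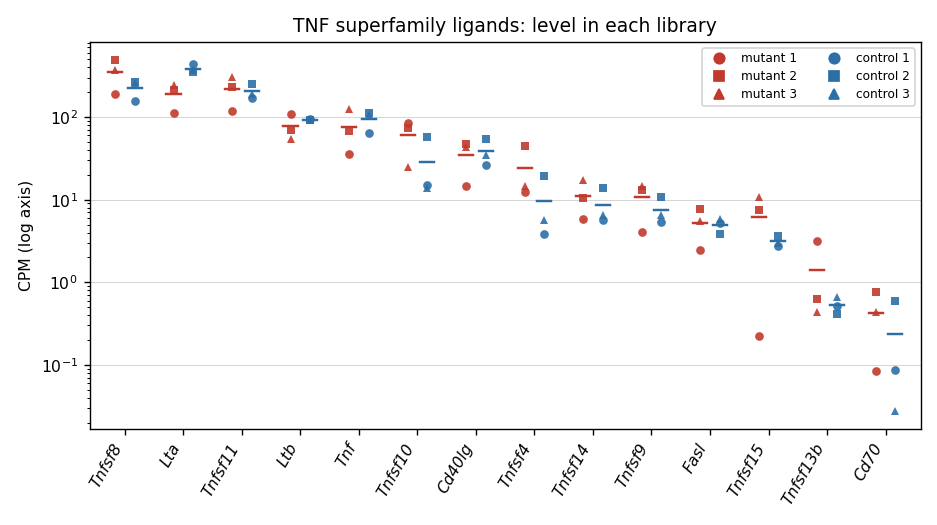
CPM of the 14 tested ligands on a log axis, mutant libraries (red) left of control libraries (blue), one symbol per replicate number and a bar at each mean. The red points of Lta, from 111 to 245 CPM, lie below its blue points, from 353 to 438 CPM; in the other 13 ligands the colours overlap.

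Among the costimulatory receptors, the genes for OX40, GITR and 4-1BB were low in mutant 1 and near or above the controls in the other mutant libraries. Tnfrsf4 was at 108, 225 and 245 CPM in mutant libraries, against 199, 204 and 208.5 CPM in control libraries. Its neighbour Tnfrsf18 was at 82.1, 208 and 148 CPM in mutant and 131, 148 and 131 CPM in control libraries. Tnfrsf9 had 122, 294 and 164 CPM in mutant libraries, against 152, 222 and 161 CPM in control libraries. In all 3 genes mutant 1 was the lowest library of the 6. The log2 fold changes were -0.080 ± 0.28, 0.097 ± 0.30 and 0.12 ± 0.32 (SE), and without mutant 1 they were 0.22, 0.39 and 0.37. The 95% interval for Tnfrsf4, from -0.73 to 0.57, leaves room for differences in either direction. Foxp3, the transcription factor of Tregs, was highest in mutant 1, with 230.4, 118 and 52.3 CPM in mutant and 119, 139 and 108 CPM in control libraries. Of the other Treg genes, Izumo1r had the same order among the mutant libraries, while Il2ra, Ctla4 and Ikzf2 were highest in mutant 2. The sum of 5 Treg genes, Foxp3 among them, was 2580, 3730 and 2190 CPM in mutant and 3040, 3420 and 2980 CPM in control libraries. Most of it was Il2ra, at 1935 CPM in mutant 1 and 2405 to 2796 CPM in control libraries. Ctla4 was also below every control in mutant 1, while Ikzf2 lay within the control range. Izumo1r, at 49.2 CPM in mutant 1, was level with control 2 and control 3, at 49.5 and 49.7 CPM. It was lower in mutant 2 and mutant 3, at 31.9 and 21.5 CPM.

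Tnfrsf1b, which encodes TNFR2, was at 274.5, 152 and 174 CPM in mutant libraries, against 130.0, 159 and 130.1 CPM in control libraries. Mutant 1 was far above the rest, and control 2 lay above mutant 2 (log2 fold change 0.52 ± 0.23 SE, edgeR adjusted p = 0.661; 0.24 without mutant 1). Tnfrsf14, for HVEM, which binds LIGHT and BTLA, was at 22.8, 14.4 and 14.4 CPM in mutant and 11.4, 13.7 and 11.8 CPM in control libraries. Every mutant library was above every control, but mutant 2 and control 2 differed by less than 1 CPM, and the log2 fold change of 0.49 ± 0.23 (SE) was 0.24 without mutant 1. Cd27 was at 46.1, 19.3 and 10.2 CPM in mutant and 16.9, 16.0 and 13.2 CPM in control libraries. The groups overlapped, mutant 3 being the lowest of all, and the log2 fold change of 0.71 ± 0.48 (SE) was -0.048 without mutant 1.

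Tnfrsf13b, Tnfrsf13c and Cd40 are best known from B cells. Tnfrsf13b encodes TACI, a receptor for BAFF and APRIL, and was lower in each mutant library. To show the start of the receptor with the smallest p, the 250 bases before it (RefSeq, GRCm38.p6, 5′ to 3′) are given with the GGAAA match in capitals:
Tnfrsf13b, chr11:61126505-61126754, strand +: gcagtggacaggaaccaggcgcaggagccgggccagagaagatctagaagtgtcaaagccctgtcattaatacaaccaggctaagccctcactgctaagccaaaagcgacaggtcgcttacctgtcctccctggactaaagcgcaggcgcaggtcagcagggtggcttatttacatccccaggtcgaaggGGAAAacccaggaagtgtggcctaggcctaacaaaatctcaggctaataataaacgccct

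The window holds 1 match to GGAAA and none to the κB or AP-1 patterns. Tnfrsf13b was at 103, 118 and 94.5 CPM in mutant libraries, against 242.5, 160 and 186 CPM in control libraries. All 3 mutant libraries lay close together and below every control. The means were 105 ± 12.01 CPM in mutant and 196 ± 42.3 CPM in control libraries (SD, n = 3 each). Its log2 fold change of -0.90 ± 0.19 (SE; 95% interval from -1.33 to -0.46) ran from -1.03 to -0.72 when single libraries were left out. The unadjusted edgeR p was 0.00141 and the adjusted p was 0.598 in edgeR but 0.0186 in DESeq2. The summed B cell genes were highest in mutant 2, also the mutant library with the most Tnfrsf13b. The CD8 genes were highest in control 1, also the library with the most Tnfrsf13b of all. In other libraries the ranks differed. Mutant 3 had the next B cell sum, at 10 CPM, and the least Tnfrsf13b. Control 3 had the lowest CD8 sum, at 5.81 CPM, and more Tnfrsf13b than control 2. The part of the B cell or CD8 sums in the Tnfrsf13b values was not tested.

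Cd40, the receptor of CD40 ligand, was at 21.3, 15.9 and 18.8 CPM in mutant libraries, against 9.58, 17.6 and 9.36 CPM in control libraries. Only control 2 reached the range of the mutant libraries, and the log2 fold change of 0.61 ± 0.28 (SE; edgeR adjusted p = 0.661) was 0.97 without it. Tnfrsf13c, for the BAFF receptor, was at 3.99 to 6.19 CPM in mutant and 2.35 to 4.15 CPM in control libraries (0.75 ± 0.33 SE on the log2 scale). The sum of B cell genes was higher in mutant 2 and mutant 3 than in any control. In mutant 1, the library with the most Cd40, it was 4.21 CPM and lay within the control range. Control 2, the control with the most Cd40, had the lowest sum of all, at 3.61 CPM. The part of the B cell sum in the Cd40 and Tnfrsf13c values was not tested.

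The 5 death-domain receptors all overlapped between the groups. Fas was at 18.4, 45.7 and 19.9 CPM in mutant and 19.9, 30.1 and 23.1 CPM in control libraries, so that mutant 2 was the highest and mutant 1 the lowest. Tnfrsf10b, the TRAIL receptor, was at 18.0, 81.5 and 78.5 CPM in mutant and 46.9, 71.5 and 48.7 CPM in control libraries. Mutant 1 stood far below all others, and the log2 fold change of 0.091 ± 0.49 (SE) was 0.53 without it. Tnfrsf1a, for TNFR1, had 18.9, 11.7 and 13.2 CPM in mutant libraries, against 13.5, 13.4 and 13.8 CPM in control libraries. The 3 controls were almost equal and the mutant libraries lay on both sides of them (0.11 ± 0.21 SE on the log2 scale). Tnfrsf25, the receptor of TL1A, was at 42.2, 19.4 and 28.2 CPM in mutant and 21.6, 32.7 and 21.2 CPM in control libraries. For Tnfrsf21, or DR6, the values were 10.9, 3.82 and 6.55 CPM in mutant and 6.68, 3.76 and 5.31 CPM in control libraries. Mutant 1 was the highest library for both, and without it their log2 fold changes of 0.25 and 0.43 became -0.069 and -0.0019.

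Tnfrsf26, Tnfrsf22 and Tnfrsf23 are neighbours on chromosome 7; Tnfrsf22 and Tnfrsf23 are known in mice as decoy TRAIL receptors. Tnfrsf26 was at 96.4, 26.7 and 21.2 CPM in mutant libraries, against 21.14, 21.02 and 19.4 CPM in control libraries. The groups did not overlap, but mutant 3, at 21.19 CPM, was level with control 1, and the size of the difference came from mutant 1. The log2 fold change was 1.23 ± 0.53 (SE; edgeR adjusted p = 0.651), and 0.24 without mutant 1. Tnfrsf23 was at 6.53, 2.01 and 1.82 CPM in mutant and 1.54, 0.860 and 1.29 CPM in control libraries. It had the same form, mutant 1 being highest (log2 fold change 1.49 ± 0.55 SE, edgeR adjusted p = 0.644; 0.65 without mutant 1). Tnfrsf22 was at 23.9, 21.5 and 22.6 CPM in mutant and 25.3, 25.6 and 26.3 CPM in control libraries. Its mutant libraries were all slightly below the controls, with a log2 fold change of -0.18 ± 0.13 (SE). Tnfrsf22 and Tnfrsf23 had fractional counts, which can arise where reads are shared between genes, so their split is uncertain. Fractional counts were not particular to these genes, since 57.8% of all deposited values were whole.

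Of the remaining receptors, Tnfrsf19, also called TROY, was close to 1 CPM, at 0.678, 0.453 and 0.842 CPM in mutant and 0.929, 1.33 and 1.32 CPM in control libraries. All mutant values were below the controls (log2 fold change -0.85 ± 0.37 SE, edgeR adjusted p = 0.658). Tnfrsf11a, which encodes RANK, ran from 1.58 to 7.39 CPM in mutant and from 3.48 to 7.86 CPM in control libraries. Tnfrsf12a, the TWEAK receptor, ran from 2.78 to 7.26 CPM in mutant and from 1.54 to 3.31 CPM in control libraries, again with mutant 1 highest. Tnfrsf11b, for the soluble decoy osteoprotegerin, stayed at or below 1.25 CPM in every library. Ltbr, the lymphotoxin-β receptor, which T cells are known to lack, had 5 to 21 counts per library and at most 0.571 CPM.

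**Figure D4:**
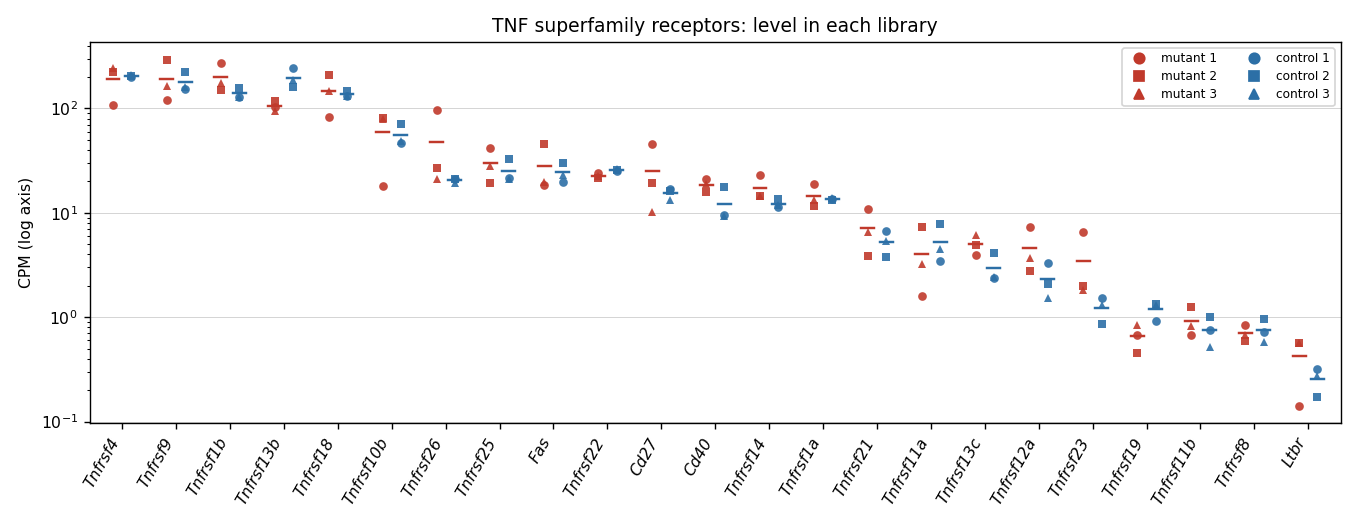
CPM of the 23 tested receptors on a log axis, mutant libraries (red) left of control libraries (blue), one symbol per replicate number and a bar at each mean. Red lies below blue in Tnfrsf13b (94.5 to 118 against 160 to 242.5 CPM), Tnfrsf22 and Tnfrsf19, and above blue in Tnfrsf26, Tnfrsf14 and Tnfrsf23; mutant 1 (red circle) is the lowest of 6 in Tnfrsf4, Tnfrsf9, Tnfrsf18 and Tnfrsf10b.

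Divided by exon length, members can be set against each other. On this scale of CPM per kilobase, Lta led the ligands at 136 in mutant and 279 in control libraries, followed by Tnfsf11 at 98.1 and 91.4. The third was Tnfsf8 in mutant libraries, at 91.9 against 59.1 in control libraries, where Ltb took that place, at 51.2 in mutant and 61.5 in control libraries. Tnfrsf4 led the receptors at 141 and 149 CPM per kilobase in mutant and control libraries, followed by Tnfrsf18 at 95.9 and 89.6. Next came Tnfrsf9, at 71.0 in mutant and 65.6 in control libraries, and in control libraries Tnfrsf13b stood above it, at 37.1 in mutant and 69.1 in control libraries. Several partners were far apart in level: Tnfrsf4 was above its ligand gene Tnfsf4 at 13.1 and 5.28, whereas Tnfsf8 was above its receptor gene Tnfrsf8 at 0.204 and 0.218 CPM per kilobase in mutant and control libraries. These lengths come from an annotation of another build and count all exons, used or not.

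Of 24 genes that pass on or limit TNF receptor signals (TRAF adaptors, kinases, caspase-8, ubiquitin enzymes and shedding proteases), all were tested and 0 passed edgeR's test after adjustment. The fitted log2 fold change was above 0 for 19 and below 0 for 5, with a median of 0.14. Of all genes tested 52.9% were above 0, with a median of 0.024. An unadjusted p under 0.05 was met by 2 of them, Traf1 and Birc2, against 7.62% of all genes tested. In the same 2 of 24 the groups did not overlap, against 14.1% of all genes tested. Traf1, an adaptor bound by TNFR2, 4-1BB and CD30, was at 166, 162 and 132 CPM in mutant libraries, against 101, 95.2 and 89.4 CPM in control libraries. Its 3 mutant libraries were all above the highest control (log2 fold change 0.69 ± 0.14 SE, edgeR adjusted p = 0.598). Traf1 kept a log2 fold change between 0.64 and 0.78 whichever library was left out, and DESeq2 gave it an adjusted p of 0.0546. Birc2, for the ubiquitin ligase cIAP1, was at 86.9, 117.5 and 89.3 CPM in mutant and 72.2, 79.7 and 65.0 CPM in control libraries. Its log2 fold change was 0.44 ± 0.17 (SE), with an edgeR adjusted p of 0.645. The next by p were Birc3, for cIAP2, at 119 ± 15.04 CPM in mutant and 90.4 ± 19.8 CPM in control libraries, and Tnip1, which binds the NF-κB inhibitor A20, at 138 ± 52.3 and 102 ± 15.3 CPM (SD, n = 3 each). Both overlapped between the groups.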

How the data were processed

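Gene expression was measured by RNA sequencing, after ribosomal RNA removal, in 6 libraries, 3 mutant and 3 control. Per the submitters' processing notes the authors used STAR 2.7.8a and Partek with the builds GRCm39 and mm39; which step each served, the annotation and strandedness were not given in the sources used here. As values, the authors deposited unnormalized estimated counts by gene. Of the values 57.8% are whole, and all were rounded before testing. Rows were grouped by symbol as given in the table.

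Genes were filtered with filterByExpr (minimum count 10), scaled by TMM and compared, mutant minus control, in edgeR 4.0.16 (R 4.3.3) with the robust quasi-likelihood test on all 6 libraries without covariates. P-values are two-sided and adjusted by Benjamini-Hochberg over the 18323 genes tested. Standard errors are the absolute log2 fold change over the square root of F, and 95% intervals use the total degrees of freedom. Log2 CPM values have a prior count of 2. Exon lengths are exon unions of GENCODE M21 (GRCm38), matched by gene ID. Promoter sequences and gene order come from RefSeq GRCm38.p6, matched by symbol; no coordinates are given for the counts, whose build differs. Values in every sample are given for members with a mean of 5 CPM or more, an unadjusted p under 0.05 or groups without overlap, and 4 adaptors with the smallest p. The members and lists were chosen with earlier results of these data known. Libraries of the same group differed by more than sampling noise (chi-square over its degrees of freedom 18.6 to 176) and each counted as 1 replicate. Alternatives were DESeq2 1.42.0, limma-voom (limma 3.58.1), DESeq2 size factors or upper quartile scaling, other count filters, a replicate block, and leaving out each library. A B cell gene of the planned marker list is not reported here. Depth limits the members with few counts: 3 counts stood for 0.0737 to 0.0871 CPM.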

Additional observations from a re-analysis of the deposited data

How the results depend on the processing

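No alternative in edgeR or limma-voom gave a passing ligand, receptor or adaptor, and all genes passing numbered 0 in each. In DESeq2 100 of 26415 genes passed, 1 receptor (Tnfrsf13b) among them. Unadjusted p under 0.05 was met by 1396 genes in edgeR and 1297 in limma-voom. Lta, Tnfrsf13b and Traf1 kept their direction under every alternative run.

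Counts at an unadjusted p under 0.05 moved most. With the replicate block they were 4 ligands (5.41% of all genes); receptors numbered 5 in DESeq2 (6.13%), 7 with upper quartile scaling (7.44%) and 5 with the filter of 1 CPM in 3 samples (7.34%). With single libraries left out, ligands ran from 1 to 5 and receptors from 1 without control 3 to 7 without mutant 3, where the share of all genes was also lowest (3.27%) and highest (12.9%). The number without overlap, which rests on fewer libraries, ran from 1 to 5 ligands and from 6 to 12 receptors, against 18.4% of all genes without control 3 to 32.2% without mutant 3. Both maxima, 5 and 12, came without mutant 1, where the share of all genes was 24.5%. Without mutant 2 the counts were 1 ligand and 11 receptors, against 23.2% of all genes. The median log2 fold change ran from 0.11 to 0.80 for ligands and from 0.14 to 0.38 for receptors, highest without control 2 in both. Ligands higher in mutant libraries numbered 8 to 12 and receptors 13 to 19. These counts were added after the data were seen.

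Over all genes, replicate numbers showed no pairing: deviations of same-numbered libraries correlated at -0.048, -0.067 and -0.028. No library correlated best with its own number. With 3 libraries per group, these values cannot exclude a pairing that touches some genes only. Under the replicate block 0 genes passed. The unadjusted edgeR p of Tnfsf4 was 0.000167 with the block and 0.0974 without it, and its adjusted p with the block was 0.765. For Tnfsf8 and Tnfsf10 the unadjusted edgeR p was 0.0178 and 0.0301 with the block, against 0.108 and 0.127 without it.

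Log2 fold changes of 17 members changed sign when a library was left out; the cause was not tested. They ran from -1.12 to 0.016 for Tnfrsf11a, -0.24 to 0.12 for Tnfrsf8 and -0.010 to 0.51 for Tnfrsf11b, and from -0.048 to 1.09 for Cd27, -0.39 to 0.24 for Cd40lg, -0.33 to 0.44 for Fas, -0.28 to 0.44 for Fasl, -0.88 to 0.029 for Tnf, -0.19 to 0.53 for Tnfrsf10b, -0.23 to 0.39 for Tnfrsf18, -0.11 to 0.27 for Tnfrsf1a, -0.0019 to 0.76 for Tnfrsf21, -0.069 to 0.50 for Tnfrsf25, -0.30 to 0.22 for Tnfrsf4, -0.30 to 0.37 for Tnfrsf9, -0.22 to 0.42 for Tnfsf11 and -0.11 to 0.88 for Tnfsf14. Fasl was also negative in limma-voom (-0.036) and with the block (-0.038), Tnfrsf10b in both (-0.17 and -0.15) and Tnfrsf18 in limma-voom (-0.0014).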
